A study of Mus musculus with 6 samples.

Results

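Small leucine-rich proteoglycans are secreted proteins built from leucine-rich repeats, and 9 genes of this family were followed in RNA-seq of mouse embryonic fibroblasts (MEFs). They were *Dcn*, *Bgn*, *Aspn*, *Lum*, *Fmod*, *Prelp*, *Omd*, *Ogn* and *Podn*, taken by gene symbol from the 17092 genes of the deposited table. MEFs are primary connective tissue cells grown from mouse embryos. The 6 libraries came from MEFs of wild-type (WT) mice, 3 libraries, and of Aff3ir-ORF2-/- mice, 3 libraries. *Aff3ir-ORF2* is an open reading frame of *Aff3ir*, a gene nested within *Aff3*, and the knockout is carried by the whole animal. The labels name no treatment, embryo age or embryo sex, and do not say whether the libraries of a genotype came from separate embryos, so the p-values measure only the spread between these libraries, which may be technical. *Aff3ir* was not analysed here, and the loss of its product was therefore not checked in the counts.

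In connective tissue these proteoglycans coat collagen fibrils, where they set the spacing and the diameter of the fibrils. Many carry a chondroitin, dermatan or keratan sulfate chain, and several bind growth factors of the TGF-β family or receptors at the cell surface. Decorin, biglycan and asporin form class I of the family, and lumican, fibromodulin, PRELP and osteomodulin form class II. Osteoglycin, also called mimecan, is a class III protein and podocan belongs to a later, non-canonical class.

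Total counts ranged from 17435133 to 18252330 per library. The WT libraries differed little from each other, with a chi-square per degree of freedom over genes of 1.38 to 1.71 for each pair, against 5.56 to 18.9 for the pairs of Aff3ir-ORF2-/- libraries, in which replicate 2 stood apart from the other two. Of the 15 listed fibroblast genes, such as *Col1a1* and *Vim*, all were measured in both genotypes, with 1 called higher, 0 lower and a median log2 fold change of 0.02. This median hid moves in both directions, since 7 of the 15 had an adjusted p under 0.05 at any fold in the test described below. Of these, *Col1a1* (-0.49), *Vim* (-0.39) and *Ddr2* (-0.33) were lower. *Pdgfrb* (0.59), *P4ha1* (0.53), *Pdpn* (0.46) and *Prrx1* (0.27) were higher. Markers of macrophages were also present in the Aff3ir-ORF2-/- libraries. Their summed level ran from 25.1 to 28.3 CPM (a count scaled by library size) in WT and from 1454 to 2475 CPM in Aff3ir-ORF2-/- MEFs. Of the 19 tested markers 19 were higher, and 3 of the 20 listed had 0 counts in each WT library. The defining marker *Adgre1* had 8, 11 and 10 counts in the WT libraries. Some markers, such as *C1qa* and *C1qb* with 0 WT counts, passed the filter on low counts only through the Aff3ir-ORF2-/- libraries. For these, being tested and being higher were linked in advance. Under a stricter filter, where no library could hold fewer than 10 counts of a gene, 9 markers were called higher. In such bulk libraries, a change in the number of cells of a type and a change in RNA per cell cannot be told apart.

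The comparison of genotypes asked which genes differ in MEFs without *Aff3ir-ORF2*. A gene was called where the adjusted p of the edgeR quasi-likelihood test was under 0.05 and the fold change was at least 1.5. *Prelp*, *Lum* and *Ogn* rose 4.52-fold, 4.50-fold and 4.21-fold in Aff3ir-ORF2-/- MEFs, and *Podn* rose 2.03-fold. *Dcn* was 1.57-fold higher and passed the test, but its call was lost under several of the alternative settings. *Bgn*, by far the most abundant member, and *Fmod* and *Aspn* did not pass. Of the 9 members 8 had enough counts to be tested, 5 were called higher and 0 lower, where 14.3% of the 13075 genes tested were called higher and 7.32% lower, 21.6% in all. The median log2 fold change of the 8 tested members was 0.84, and that of all tested genes was 0.01. Each tested member had at least 64 counts in every WT library, so that none passed the filter on low counts only through the Aff3ir-ORF2-/- libraries.

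In class II, PRELP is a proteoglycan relative that binds collagen and heparan sulfate. *Prelp* (gene ID 116847) had 64, 66 and 70 counts in the WT libraries, and the Aff3ir-ORF2-/- replicates 1 to 3 had 284, 443 and 229. Each Aff3ir-ORF2-/- library lay above each WT library. Its level rose from 3.82 ± 0.16 to 17.3 ± 5.83 CPM (SD, n = 3 per genotype), and the log2 fold change was 2.17 (SE 0.24, adjusted p = 1e-04).

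Lumican is a keratan sulfate proteoglycan best known from the cornea, where it keeps collagen fibrils thin. *Lum* (gene ID 17022) had 241, 273 and 278 counts in the WT libraries, and the Aff3ir-ORF2-/- MEFs had 728, 1917 and 1132, with no overlap between the genotypes. The level rose from 15.1 ± 1.02 to 68.2 ± 32.0 CPM (SD, n = 3 each), and the log2 fold change was 2.17 (SE 0.31, adjusted p = 3.88e-04). Its highest Aff3ir-ORF2-/- library held more than 2 times the counts of the lowest.

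Fibromodulin binds the same collagen sites as lumican and takes part in collagen cross-linking. *Fmod* (gene ID 14264) had 568, 601 and 544 counts in the WT libraries, and the Aff3ir-ORF2-/- libraries had 651, 1057 and 606. Scaled to library size, the genotypes overlapped, with 32.8 ± 1.53 CPM in WT against 41.8 ± 12.97 CPM (SD, n = 3 each). The log2 fold change of 0.35 (SE 0.18) did not pass the test (adjusted p = 0.124).

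Osteomodulin is an acidic protein of bone matrix. *Omd* (gene ID 27047) had 5, 6 and 5 counts in the WT libraries, and the Aff3ir-ORF2-/- libraries had 6, 11 and 4, too few to enter the test. Without the filter on low counts its log2 fold change was 0.29 (SE 0.49, adjusted p = 0.659 over 17065 genes), so that no difference was detectable at this depth.

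Osteoglycin is a corneal and bone matrix protein that also regulates fibril size. *Ogn* (gene ID 18295) had 115, 108 and 113 counts in the WT libraries, and the Aff3ir-ORF2-/- MEFs had 442, 681 and 374. All 3 of the latter were above all WT libraries. The level rose from 6.43 ± 0.27 to 27.1 ± 8.44 CPM (SD, n = 3 each), and the log2 fold change was 2.07 (SE 0.21), with the smallest adjusted p of the 8 members (6.87e-05).

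Podocan binds collagen and was named for its place in the glomerulus. *Podn* (gene ID 242608) had 117, 115 and 104 counts in the WT libraries, and the Aff3ir-ORF2-/- libraries had 151, 359 and 213, again without overlap. Its level rose from 6.43 ± 0.43 to 13.1 ± 5.63 CPM (SD, n = 3 each), and the log2 fold change was 1.02 (SE 0.28, adjusted p = 0.0116). When the fold change was tested against a 1.5-fold change rather than against no change, *Prelp*, *Lum* and *Ogn* were called and *Podn* was not.

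In class I, decorin binds collagen and TGF-β and is the best studied member. *Dcn* (gene ID 13179) had 1874, 1881 and 1835 counts in the WT libraries, and the Aff3ir-ORF2-/- libraries had 2245, 4510 and 2521. No Aff3ir-ORF2-/- library fell into the narrow WT range, and the level was 107 ± 1.83 CPM in WT and 168 ± 64.9 CPM in Aff3ir-ORF2-/- MEFs (SD, n = 3 each). The log2 fold change was 0.65 (SE 0.22, adjusted p = 0.0298). The call did not hold in the quasi-likelihood fit with the robust option, an alternative added after the data were seen (adjusted p = 0.094), in DESeq2 (adjusted p = 0.0827) or without any 1 WT library (adjusted p from 0.0796 to 0.0866). Without Aff3ir-ORF2-/- replicate 2 the log2 fold change of *Dcn* was 0.28, below 1.5-fold.

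Biglycan, the close relative of decorin, also signals through the Toll-like receptors TLR2 and TLR4 when it is released from the matrix. *Bgn* (gene ID 12111) had 47502, 48435 and 48037 counts in the WT libraries, and the Aff3ir-ORF2-/- MEFs had 51036, 57666 and 48743. On the CPM scale the genotypes overlapped, at 2753 ± 3.15 against 2851 ± 223 CPM (SD, n = 3 each), and the log2 fold change of 0.05 (SE 0.06) did not pass the test (adjusted p = 0.504). *Bgn* lies on the X chromosome, and of the 4 Y-linked genes in the table *Eif2s3y*, *Ddx3y* and *Uty* were higher in Aff3ir-ORF2-/- MEFs by log2 fold changes of 0.81, 0.61 and 0.62, while *Kdm5d* differed by 0.07 and was not called. Without replicate 1 or without replicate 2 of the Aff3ir-ORF2-/- libraries, 1 of the 4 was called. Their part in the level of *Bgn* was not tested.

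Asporin, named for its run of aspartate residues, binds collagen and TGF-β and lacks the chain of its class. *Aspn* (gene ID 66695) had 394, 390 and 437 counts in the WT libraries, and the Aff3ir-ORF2-/- libraries had 242, 711 and 187. Replicates 1 and 3 were below every WT library and replicate 2 was above them all. The log2 fold change over the 3 libraries was -0.18 (SE 0.41, adjusted p = 0.721). Without replicate 2 it was -0.996 and *Aspn* was called lower (adjusted p = 1.1e-05), where 7.58% of the genes tested were called lower.

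The genotypes did not overlap in 5 of the 9 members, all with Aff3ir-ORF2-/- higher, where 33.3% of all tested genes had every Aff3ir-ORF2-/- library above every WT library and 32.7% had every one below. The members varied far more among the Aff3ir-ORF2-/- libraries than among the WT libraries. The coefficient of variation of the 8 tested members ran from 0.114% to 6.77% in WT (median 4.42%, against 4.39% over all tested genes) and from 7.84% to 74.6% in Aff3ir-ORF2-/- MEFs (median 36.2%, against 7.69%).

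In this spread 1 library stood out, although replicates 1 and 3 also differed for some members. *Lum* was at 40.0 and 61.7 CPM in these and *Aspn* at 13.3 and 10.2, while *Fmod* was closer at 35.7 and 33.0. Replicate 2 was the highest Aff3ir-ORF2-/- library for 9 of the 9 members, whereas it was the highest for 36.5% of the tested genes. Relative to the mean of replicates 1 and 3, replicate 2 was 3.25 times as high for *Aspn*, 2.02 for *Lum*, 1.94 for *Podn*, 1.86 for *Dcn*, 1.69 for *Prelp*, 1.65 for *Fmod*, 1.64 for *Ogn* and 1.13 for *Bgn*. Over all tested genes the median of this ratio was 0.992 and 4.06% of genes reached 1.5. Replicate 2 was also the highest for 11 of the 14 collagen genes, 11 of 15 fibroblast genes, 9 of 14 genes of matrix processing, 4 of 6 tendon genes and the 4 Y-linked genes. Some genes stand in several of these lists. In contrast, it was the highest for 0 of 4 tested other genes of the family and 0 of 5 cartilage genes. The same held for 2 of 8 keratan sulfate genes, 8 of 25 chondroitin and dermatan sulfate genes and 6 of 18 TGF-β regulators. For the macrophage markers replicate 3 was the highest in 16 of 19, and their summed level was 1454, 2008 and 2475 CPM in replicates 1 to 3. The labels give no batch, and the part of a batch or of other cells in the high values of replicate 2 was not tested.

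**Figure D1:**
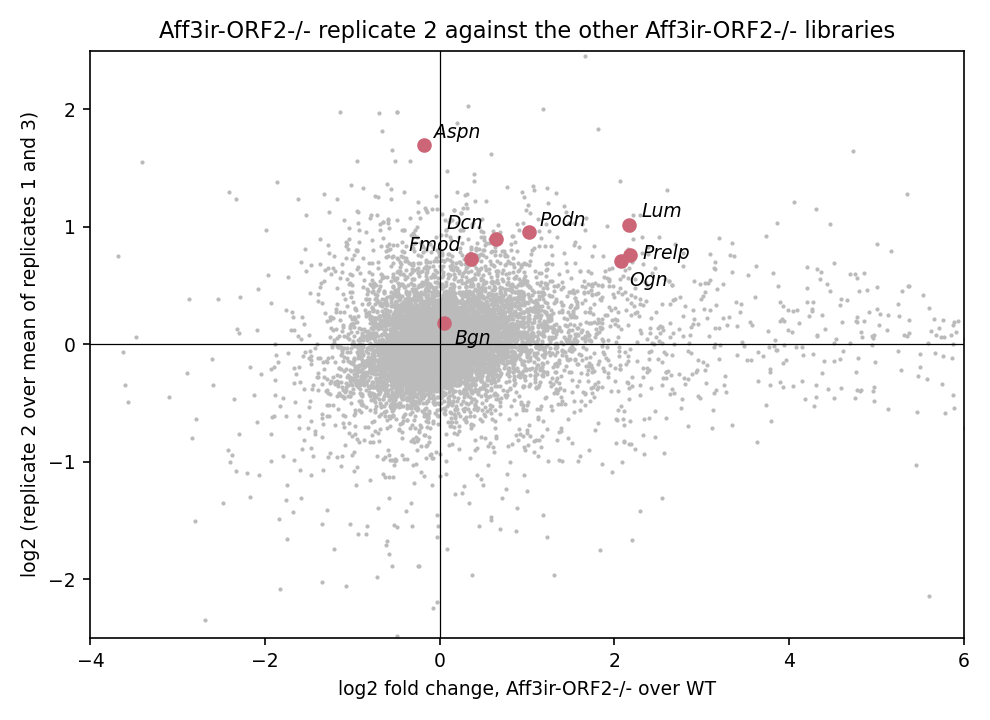
Log2 fold change of each tested gene, Aff3ir-ORF2-/- over WT, against the log2 ratio of Aff3ir-ORF2-/- replicate 2 to the mean of replicates 1 and 3, for 13075 genes in grey, 86 of which lie outside the drawn range, and the 8 tested members in colour. All 8 members lie on the side where replicate 2 is higher, *Aspn* the furthest.

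With replicate 2 left out, *Prelp*, *Lum*, *Ogn* and *Podn* were still called, with log2 fold changes of 1.87, 1.74, 1.79 and 0.63. *Dcn* was then below the fold threshold, *Aspn* was called lower, *Fmod* was at 0.07 (adjusted p = 0.38) and *Bgn* at -0.02 (adjusted p = 0.646). The count was then 4 members higher, where 13.8% of genes were called higher, and 1 lower.

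**Figure D2:**
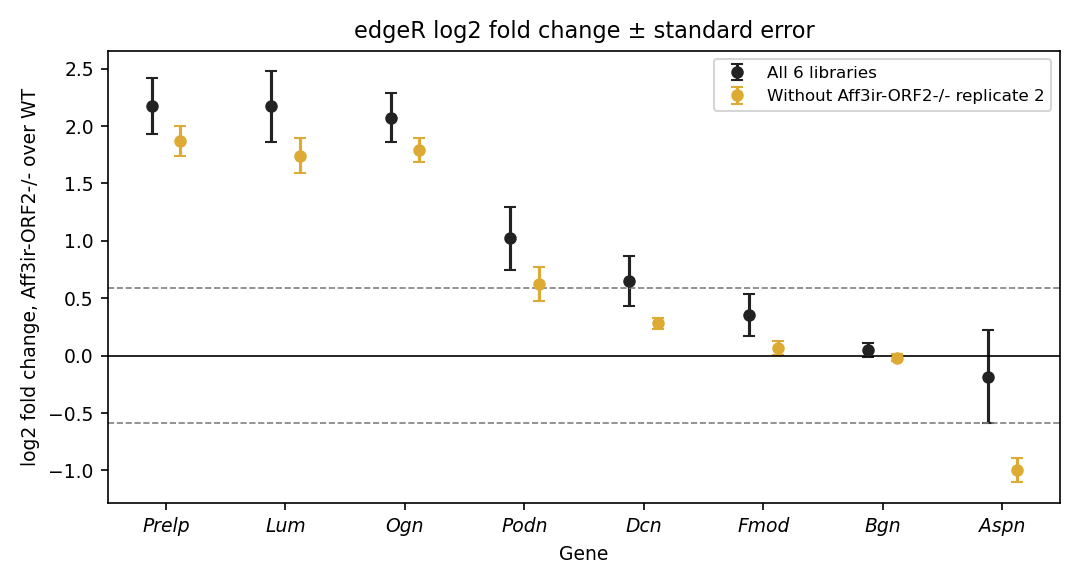
Log2 fold changes of the 8 tested members, Aff3ir-ORF2-/- over WT, from the edgeR fit on all 6 libraries (black) and without Aff3ir-ORF2-/- replicate 2 (yellow), with bars of 1 SE and dashed lines at a 1.5-fold change. *Prelp*, *Lum* and *Ogn* lie at 1.74 or above in both fits, *Dcn* moves from 0.65 to 0.28 and *Aspn* from -0.18 to -0.996.

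Levels of different genes were compared as RPKM, which scales counts to library size and to transcript length, using the longest coding transcript of each gene. In WT MEFs *Bgn* led with 1138 ± 1.30 RPKM (SD, n = 3), followed by *Dcn* with 60.8 ± 1.04, *Fmod* with 10.5 ± 0.49, *Aspn* with 10.03 ± 0.64, *Lum* with 6.19 ± 0.42, *Ogn* with 2.51 ± 0.10, *Podn* with 2.03 ± 0.14, *Prelp* with 1.06 ± 0.04 and *Omd* with 0.136 ± 0.014 RPKM. *Fmod* and *Aspn* overlapped, and the other neighbours in this order did not. In Aff3ir-ORF2-/- MEFs the order of mean levels was *Bgn*, *Dcn*, *Lum*, *Fmod*, *Ogn*, *Aspn*, *Prelp*, *Podn* and *Omd*, and *Lum* stood at 27.9 ± 13.1 RPKM. From *Lum* to *Podn* the neighbours in that order overlapped between libraries. Within every single Aff3ir-ORF2-/- library, however, *Lum* was above *Fmod*, *Fmod* above *Ogn* and *Aspn* above *Prelp*. The order of *Ogn* and *Aspn* and that of *Prelp* and *Podn* changed between libraries.

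**Figure D3:**
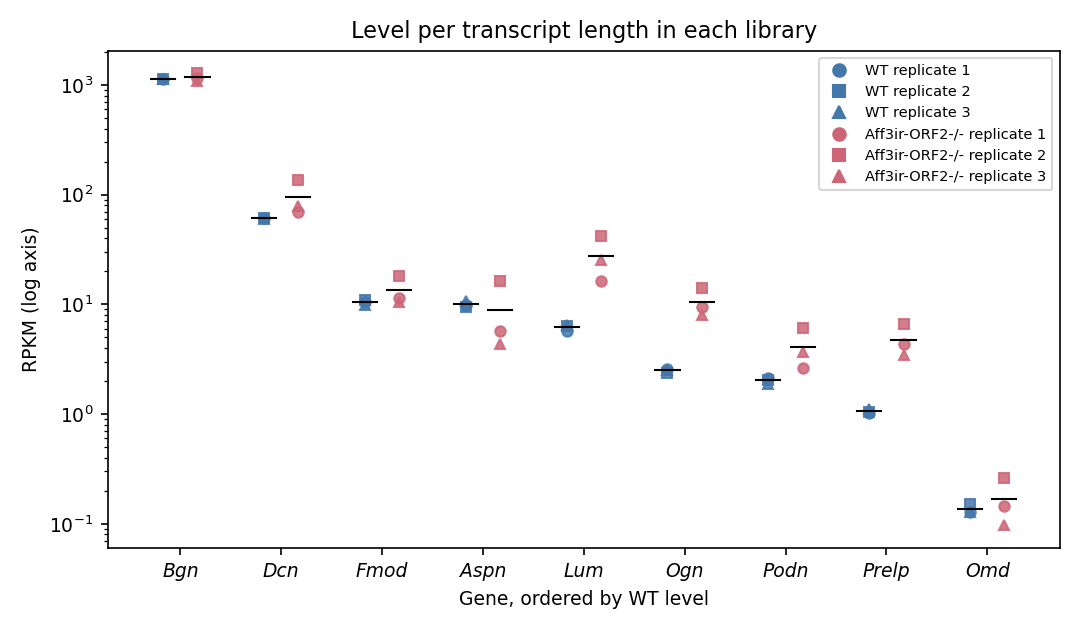
Level of each member in each library, in RPKM on a log axis and ordered by the WT level, with WT in blue, Aff3ir-ORF2-/- in red, 1 marker shape for each replicate number and a bar at the mean. The Aff3ir-ORF2-/- libraries of *Prelp*, *Lum*, *Ogn*, *Podn* and *Dcn* lie above all WT libraries, and *Aspn* has 2 libraries below and 1 above.

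The 9 members together took 0.292 ± 0.000843% of all counts in WT and 0.324 ± 0.0393% in Aff3ir-ORF2-/- MEFs (SD, n = 3 each). *Bgn* held 93.4% of the member counts in WT, and its part in Aff3ir-ORF2-/- replicates 1 to 3 was 91.5%, 85.6% and 90.3%. Without *Bgn* the share was 0.0193 ± 0.000135% in WT and 0.0360 ± 0.0148% in Aff3ir-ORF2-/- MEFs. With replicate 2 left out, the difference between the genotypes fell from 0.0321 to 0.00961 percentage points for all members, and from 0.0167 to 0.00818 without *Bgn*.

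A ratio of 2 members within a library does not depend on how libraries are scaled. The ratio of *Lum* to *Dcn* was 0.142 ± 0.012 in WT and 0.400 ± 0.066 in Aff3ir-ORF2-/- MEFs (SD, n = 3 each), and that of *Fmod* to *Lum*, which compete for one collagen site, was 2.17 ± 0.20 and 0.660 ± 0.203. *Prelp* and *Fmod* are next to each other in the genome, and their ratio was 0.117 ± 0.010 in WT and 0.411 ± 0.030 in Aff3ir-ORF2-/- MEFs, with 0.436, 0.419 and 0.378 in replicates 1 to 3. The ratio of *Prelp* to *Fmod* therefore had a narrow range among libraries whose levels of both genes differed. This range was not particular to neighbours. Relative to the mean of replicates 1 and 3, replicate 2 was 1.69 times as high for *Prelp*, 1.65 for *Fmod* and 1.64 for *Ogn*, which lies on another chromosome. *Bgn* to *Dcn* went from 25.8 ± 0.415 to 18.3 ± 5.06 and *Aspn* to *Dcn* from 0.219 ± 0.017 to 0.113 ± 0.042. Without replicate 2 the log2 difference in *Bgn* to *Dcn* was -0.30 in place of -0.53. *Omd* to *Ogn* went from 0.0478 ± 0.0068 to 0.0135 ± 0.0027, *Aspn* to *Omd* from 77.1 ± 11.3 to 50.6 ± 12.6 and *Podn* to *Dcn* from 0.0601 ± 0.0030 to 0.0771 ± 0.0089. In each of the 8 ratios the genotypes did not overlap. Ratios of other gene pairs were not counted, and of single tested genes 33.3% were higher and 32.7% lower without overlap. The 8 ratios therefore cannot be read as particular in this respect. *Aspn* to *Omd*, with few *Omd* counts, came as close as 65.0 in WT and 64.6 in Aff3ir-ORF2-/- MEFs. It overlapped when 0.5 was added to each count (exact permutation test, adjusted p = 0.2, against 0.114 for the other ratios). Without this addition each of the 8 ratios gave a two-sided p of 0.1 in an exact permutation test. This was 0.1 also after Benjamini-Hochberg adjustment over the 8, and is the smallest that 3 against 3 libraries allow.

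**Figure D4:**
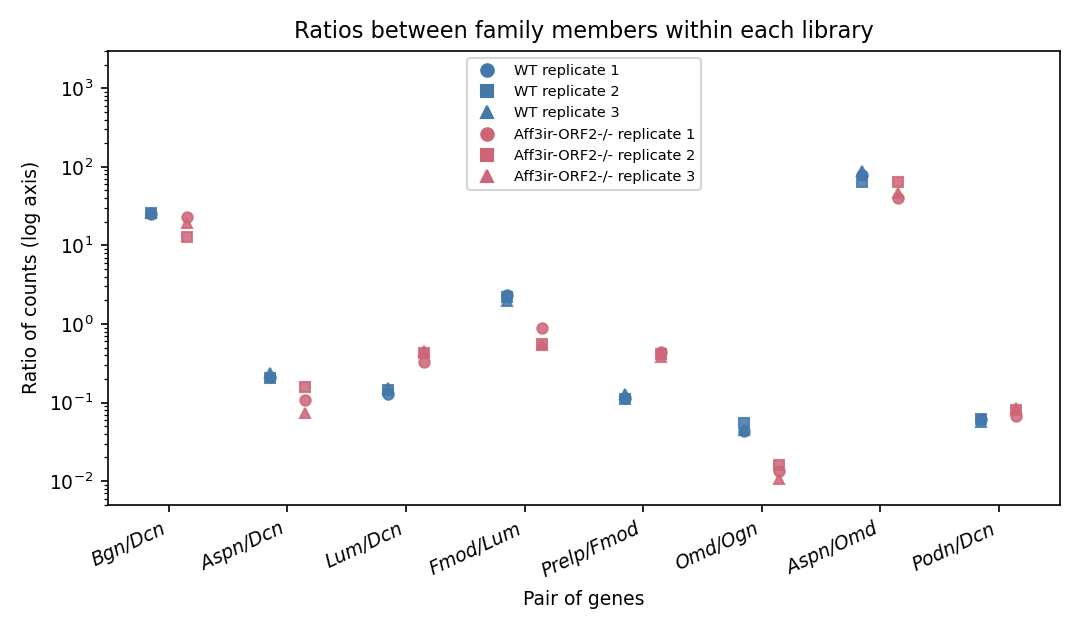
Ratio of the counts of 2 members within each library on a log axis, with a marker for each library, WT in blue and Aff3ir-ORF2-/- in red. The ratio of *Prelp* to *Fmod* is near 0.117 in the WT libraries and near 0.411 in the Aff3ir-ORF2-/- libraries, and *Aspn* to *Omd* nearly touches between genotypes.

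Most of the members lie in 3 gene clusters, in the gene order of the RefSeq annotation of GRCm38.p6. On chromosome 10 *Dcn* and *Lum* adjoin, followed by *Kera*, the corneal proteoglycan keratocan, which had at most 3 counts in any library. On chromosome 1 *Optc*, *Prelp* and *Fmod* follow each other, and the next gene, *Btg2*, was at -0.07 on the log2 scale (adjusted p = 0.252). On chromosome 13 *Ecm2*, *Aspn*, *Omd* and *Ogn* lie within the span of *Cenpp*, which encodes a centromere protein on the opposite strand. Each cluster thus held both a member that rose more than 4-fold and one that was far below this or was not called.

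*Cenpp* had 65, 75 and 73 counts in the WT libraries, and the Aff3ir-ORF2-/- libraries had 54, 54 and 58, a log2 fold change of -0.44 (adjusted p = 0.0264) that did not reach the fold threshold. *Nol8*, beyond *Ogn*, was at -0.01 (adjusted p = 0.864). *Bgn* and *Podn* stand alone on chromosomes X and 4, beside *Haus7* (log2 fold change -0.04, adjusted p = 0.749) and *Scp2* (0.34, adjusted p = 0.00101, below 1.5-fold). In the GENCODE M21 annotation *Aspn* shared 7 of its 2354 exonic bases with *Cenpp* and *Prelp* shared 350 of 3615 with the antisense gene *Gm15851*. Whether reads were counted by strand is not given in the sources used here, so the counts of *Prelp* may include some reads of that gene.

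Promoter windows of RefSeq on GRCm38.p6, from 250 bases before to 50 bases after a gene's start, were found for 7 of the 9 members, 8 windows in all because *Podn* has 2. No window was used for *Dcn* and *Lum*. The windows are shown for the 2 genes that rose more than 4-fold and have one, *Prelp* and *Ogn*, and for *Aspn*, the cluster neighbour of *Ogn*, and *Bgn*, the most abundant member, which were not called. Capitals mark matches on either strand to TATAAA (the TATA box), to the Sp1-type box GGGCGG, to the AP-1 motif TGANTCA or to the SMAD motif CAGACA.
*Prelp* (chr1:133921352-133921651, minus strand): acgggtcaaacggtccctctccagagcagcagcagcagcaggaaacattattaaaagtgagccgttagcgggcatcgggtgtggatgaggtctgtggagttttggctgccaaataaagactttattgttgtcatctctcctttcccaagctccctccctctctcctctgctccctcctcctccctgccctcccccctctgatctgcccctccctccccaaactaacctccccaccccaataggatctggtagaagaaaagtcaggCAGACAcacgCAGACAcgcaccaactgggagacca
*Ogn* (chr13:49607765-49608064, plus strand): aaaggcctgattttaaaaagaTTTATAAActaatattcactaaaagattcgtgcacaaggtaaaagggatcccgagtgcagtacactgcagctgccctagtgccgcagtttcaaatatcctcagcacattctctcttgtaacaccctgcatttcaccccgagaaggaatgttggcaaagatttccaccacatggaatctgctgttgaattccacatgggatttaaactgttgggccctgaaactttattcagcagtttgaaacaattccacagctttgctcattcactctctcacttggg
*Aspn* (chr13:49544193-49544492, plus strand): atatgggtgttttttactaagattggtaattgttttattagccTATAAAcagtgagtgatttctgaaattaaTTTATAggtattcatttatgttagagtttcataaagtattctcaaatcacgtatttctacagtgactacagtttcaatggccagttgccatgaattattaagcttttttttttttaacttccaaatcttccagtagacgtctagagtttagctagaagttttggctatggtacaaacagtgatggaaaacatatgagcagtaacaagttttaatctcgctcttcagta
*Bgn* (chrX:73483351-73483650, plus strand): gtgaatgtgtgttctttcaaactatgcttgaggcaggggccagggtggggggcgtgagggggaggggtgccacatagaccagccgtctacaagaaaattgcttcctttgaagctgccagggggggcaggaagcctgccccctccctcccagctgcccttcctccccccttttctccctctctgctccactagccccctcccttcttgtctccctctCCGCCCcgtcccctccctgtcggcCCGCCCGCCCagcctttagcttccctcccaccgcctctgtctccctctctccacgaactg

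Among these, *Prelp* held CAGACA at positions 16 and 26, counted from the start as 1, *Aspn* held TATAAA at -207 and -178, *Ogn* at -229 and -227, which overlap, and *Bgn* held GGGCGG at -34, -10 and -6, of which the last pair overlap. Over the 8 member windows, TATAAA was found in 2, GGGCGG in 2, CAGACA in 2 and TGANTCA in 0, against 13.6%, 35.7%, 21.0% and 7.81% of all 32851 windows. The early growth response motif GCGTGGGCG was found in 0 of 8 (0.612% of all windows) and the E-box CANNTG in 7 of 8 (72.3%). The G and C content was 55.3% for *Prelp*, 42.3% for *Ogn*, 31.0% for *Aspn* and 63.7% for *Bgn*, with a median over all windows of 52.7%. *Prelp* and *Ogn* shared none of the 4 motifs in capitals. These matches describe letters and were not measured as binding sites.

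For each tested member, the gene whose centred log2 level over the 6 libraries lay closest to it was found among 11691 genes. For *Prelp* and for *Ogn* it was *Itga8*, an integrin subunit, at distances of 0.267 and 0.262. *Itga8* had 180, 192 and 215 counts in the WT libraries, and the Aff3ir-ORF2-/- libraries had 717, 1013 and 647. For *Lum* it was *Islr* (distance 0.378), which itself encodes a leucine-rich repeat protein and had 29, 31 and 29 counts in the WT libraries, and the Aff3ir-ORF2-/- libraries had 101, 214 and 124. For *Podn* it was the tendon transcription factor *Scx* (0.217). For *Dcn* it was *Cpxm1* (0.110), for *Fmod* *Rtl3* (0.137), for *Bgn* *Tbc1d9b* (0.0426) and for *Aspn* *Plat*, the tissue plasminogen activator, which at 0.514 was the least alike.

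Other genes of the family were mostly low. Of the 9 listed, 4 were tested, 0 were called higher and 1 lower, with a median log2 fold change of 0.04. *Podnl1*, a relative of podocan, fell from 140, 129 and 131 counts in WT to 77, 69 and 87 in Aff3ir-ORF2-/- MEFs, a log2 fold change of -0.86 (SE 0.13, adjusted p = 6e-04), opposite to *Podn*. *Optc* was at 0.51 (adjusted p = 0.0546), *Tsku*, which encodes the secreted protein tsukushi, at 0.01 and *Chadl* at 0.06.

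Of 25 tested genes for the linker and for chondroitin and dermatan sulfate, 4 (16%) were called higher, near the 14.3% of all tested genes, and 0 lower, with a median log2 fold change of 0.10. An adjusted p under 0.05 at any fold was found for 16 of the 25, and 3 were called lower without Aff3ir-ORF2-/- replicate 2. The 4 called higher in the fit on all libraries were *Chpf2* (0.76), which extends the chondroitin chain, the sulfotransferases *Chst12* (0.64) and *Chst7* (0.77), and *Ugdh* (0.63), which makes UDP-glucuronate. *Dse*, the dermatan sulfate epimerase, was at 0.14. Of 8 tested keratan sulfate genes 1 was higher, the sulfotransferase gene *Chst1*, with 53, 66 and 54 counts in the WT libraries, and the Aff3ir-ORF2-/- libraries had 174, 142 and 162, a log2 fold change of 1.39 (SE 0.14, adjusted p = 1e-04). The galactosyltransferase *B4galt1*, among the most highly counted of that list, was at -0.05.

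The fibril collagens and their partners moved in both directions. Of 14 tested genes, 4 were higher and 4 lower, with a median log2 fold change of -0.40. These calls were 57.1% of the list, where 21.6% of all tested genes were called. *Col11a1* and *Col2a1*, which form cartilage-type fibrils, were higher by 2.05 and 2.34, and *Col14a1* and *Col11a2* by 1.21 and 0.83. The type VI collagen genes *Col6a3*, *Col6a2* and *Col6a1* fell by 1.36, 0.93 and 0.81 on the log2 scale, and *Col5a3* fell by 1.55. The main fibril genes *Col1a1* and *Col1a2* were at -0.49 and -0.41, under the fold threshold. Without replicate 2, 7 of the 14 were called lower.

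**Figure D5:**
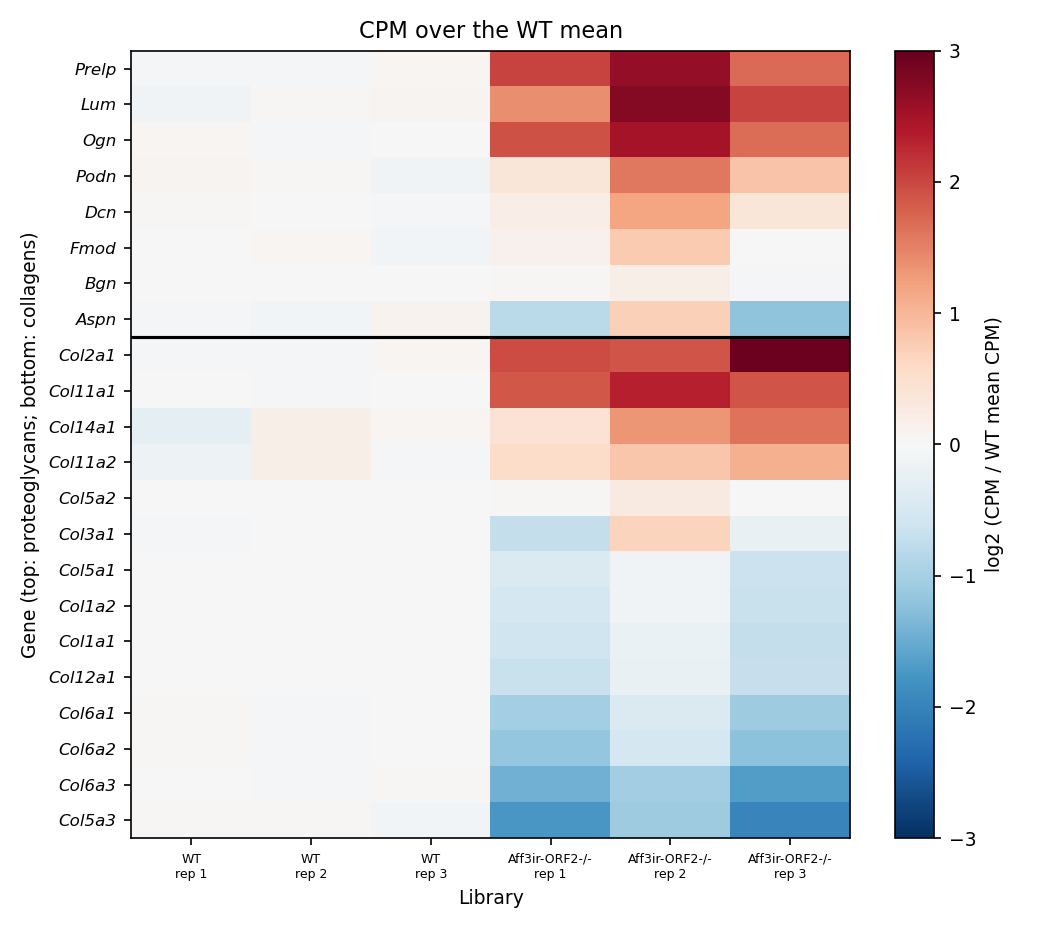
Log2 ratio of CPM to the WT mean in each library, for the 8 tested members above the line and the 14 collagen genes below it, with the colour scale running from -3 to 3. *Prelp*, *Lum* and *Ogn* are red in all Aff3ir-ORF2-/- libraries and darkest in replicate 2, while *Col6a1*, *Col6a2*, *Col6a3* and *Col5a3* are blue.

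Among 14 tested genes for processing and cleavage of matrix proteins 2 were higher and 1 lower, with a median log2 fold change of 0.15. These calls were 21.4% of the list, near the 21.6% of all tested genes. *Mmp3* and *Adamts4*, a protease that cuts proteoglycans, were higher by 0.65 and 0.83, and *Pcolce2*, an enhancer of procollagen processing, fell by 1.83. *Adamts4* was at 23.0, 42.3 and 21.7 CPM in Aff3ir-ORF2-/- replicates 1 to 3, against 16.4 CPM in each WT library, and 0 genes of this list were called higher without replicate 2 or in the fit with the robust option. Of 21 tested ligands and receptors of these proteoglycans 8 were higher and 1 lower (42.9% in all), with a median of 0.19. The 8 include *Tnf*, with 0 counts in each WT library and 30, 35 and 67 in the Aff3ir-ORF2-/- libraries. It passed the filter on low counts only through the latter, so for *Tnf* being tested and being higher were linked in advance. *Tlr2* and *Tlr4*, the receptors of biglycan, were higher by 1.86 (SE 0.19) and 0.82 (SE 0.08), *Pdgfrb* by 0.59, and *Met* fell by 0.89. *Tlr2* and *Tlr4* are also expressed by macrophages, whose markers moved with genotype as above, and their part in these values was not tested. Of 18 regulators of TGF-β signalling 3 were higher and 1 lower, with a median of 0.13. This was 22.2% in all, again near the 21.6% of all tested genes. The latent TGF-β binding protein genes *Ltbp2* and *Ltbp4* moved in opposite directions, by 0.89 and -0.92.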

How the data were processed

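RNA from MEFs was sequenced in paired ends on a DNBSEQ platform by a company, and reads were filtered with SOAPnuke per the study's methods. The authors deposited 1 table with the estimated count of each gene in each library, without normalization. The aligner and the counting tool are not given in the sources used here. The submitters' processing notes name the build mm8, the labels name Trizol for RNA extraction and the study's methods another kit. Between 10.6% and 11.3% of values per library were not whole, and all counts were rounded. The names of all 6 columns gave their library. The RefSeq annotation of GRCm38.p6 held 17043 of the 17092 gene IDs and served for gene order only.

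Genes were filtered with filterByExpr (minimum count 10, minimum total 15), which left 13075, scaled by TMM (factors 0.989 to 1.02) and tested with the quasi-likelihood test of edgeR 4.0.16 in R 4.3.3, Aff3ir-ORF2-/- against WT with no covariate. Adjusted p-values are by Benjamini-Hochberg over all tested genes, and a call needed both an adjusted p under 0.05 and at least a 1.5-fold difference. The SE is the log2 fold change over the root of the F statistic. On simulated counts with 198 genes changed 3-fold, 198 were called, and 1 unchanged gene of 13057 tested. The simulation gave both genotypes the same small spread, whereas the members had a median coefficient of variation of 36.2% among the Aff3ir-ORF2-/- libraries. It therefore checked that the code runs as intended and did not measure the error rate of the calls made here. RPKM used transcript lengths of GENCODE M21. Count ratios were compared by a two-sided exact permutation test.

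Both the default and the robust quasi-likelihood fit had been run when the choice between them was settled. The robust fit was for a time preferred because its counts of called genes matched an earlier analysis of these data, and the default was then restored because the test as first written down names no robust option. *Dcn* is called in the default fit and not in the robust fit. The members and gene lists were chosen with earlier results of these data known. Named genes were the 9 members, other tested genes of the family, in each list up to 4 called genes by adjusted p and up to 3 by mean count, the nearest pattern per member and genes beside a member. A few further list genes were named after their values were seen. Alternatives were other scalings, filters, thresholds and tools (DESeq2 1.42.0, limma 3.58.1), a replicate block and each library left out. Protein sequences were not analysed here.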

Additional observations from a re-analysis of the deposited data

How the results depend on the processing

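*Prelp*, *Lum* and *Ogn* were called under every alternative run, with log2 fold changes of 1.87 to 2.36, 1.74 to 2.44 and 1.79 to 2.24, and *Podn* under all but the test against a 1.5-fold change (0.63 to 1.26), which left 3 members called. *Dcn* passed neither in DESeq2 (0.65, adjusted p = 0.0827) nor in the robust fit (0.65, adjusted p = 0.094), an alternative chosen after the data were seen, was at 0.28 to 0.82 with 1 library left out, and in limma passed the p but not the fold threshold. *Fmod* passed the p but not the fold threshold with the replicate block (log2 fold change 0.32, adjusted p = 0.0363) and without Aff3ir-ORF2-/- replicate 3 (0.50, adjusted p = 0.0307), and its log2 fold change ran from 0.066 to 0.50 with 1 library left out. *Aspn* ran from -0.996 to 0.14 and *Bgn* from -0.017 to 0.097 with 1 library left out, and 0 to 1 members were called lower. The replicate block called the same 5 members as the fit without it. With the block the SE of *Lum* went from 0.31 to 0.17, that of *Dcn* from 0.22 to 0.15 and that of *Bgn* from 0.061 to 0.071. Same-numbered libraries correlated at 0.0225 to 0.0533 in their deviations and the others at -0.0391 to -0.00622. Thus 3 of 3 WT libraries correlated best with their own number. These correlations are small and the labels name no pairs, so whether the numbers pair the libraries was not settled.

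A 2-fold threshold left 1102 genes higher and 318 lower, and the test against a 1.5-fold change 1080 and 413. Of 931 list values under the alternatives, 120 moved and 10 changed sign. The latter were medians: bone 0.47 without the filter, 0.79 with at least 10 counts in every library and -0.55 to 0.13 with 1 library left out, neural -0.10 with at least 10 counts, and with 1 library left out other proteoglycans -0.0081 to 0.081, epithelial -0.072 to 4.46 and fibroblast -0.046 to 0.094. The cause was not tested. With 3 libraries per genotype, the spread among Aff3ir-ORF2-/- libraries limits what can be said of *Dcn*, *Fmod* and *Aspn*, and the low counts of *Omd* limit that gene.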

Other observations

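Markers of other cell types were counted beside the members. Of all tested genes, 14.3% were called higher and 7.32% lower. Of 7 smooth muscle genes 5 were higher and 0 lower, with *Myh11* at 123 to 132 counts in the WT libraries and 1212 to 1445 in the Aff3ir-ORF2-/- libraries, and replicate 2 was the highest Aff3ir-ORF2-/- library for 2 of the 7. Of 6 tested tendon genes 2 were higher and 1 lower, and of 5 tested cartilage genes 2 and 2. Of 3 tested bone genes 1 was higher, *Spp1* (osteopontin), and 1 lower, *Phex*. Of 6 endothelial genes 3 were higher and 2 lower, of 6 neural genes 4 and 2 (1 higher without WT replicate 1, and 2 without any other 1 library except Aff3ir-ORF2-/- replicate 2), of 2 epithelial genes 1 and 0, and of 2 skeletal muscle genes 1 and 0. The epithelial, bone and skeletal muscle counts rest on fewer than 4 tested genes each. Some called genes passed the filter on low counts only through the genotype where they were higher, such as *Cldn3* (1, 0 and 0 WT counts) and *Erg* (5, 3 and 7). For these, being tested and being higher were linked in advance. With at least 10 counts in every library, 0 epithelial, 1 cartilage and 2 neural genes were called higher. Under that filter 1 endothelial, 1 cartilage and 0 bone genes were called lower.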
